A study of Mus musculus with 6 samples.

Results

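The subcortical maternal complex is a protein assembly of the oocyte, held in a layer beneath the egg surface, and the transcripts of 7 genes for its components were followed here in whole mouse ovary. They are Nlrp5, Ooep, Tle6, Khdc3, Padi6, Nlrp2 and Zbed3. They were chosen by gene symbol from a table of 37924 genes, each was found once, and all 7 passed the filter on low values. The tested mice, called cKO here, were homozygous for a floxed allele and carried Gdf9-iCre, a recombinase under the promoter of the oocyte gene Gdf9. The control mice were homozygous for the same floxed allele, without the recombinase. All were of the mixed strain C57BL/6J/129S7/SvEvBrd and at postnatal day 14, and each library was a pool of 1 ovary from each of 3 mice, with 3 pools of each genotype. The comparison asks how the transcripts differ when the floxed gene is deleted in oocytes.

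In mouse, NLRP5 (also called MATER), OOEP (FLOPED), TLE6 and KHDC3 (FILIA) form the core of the complex, and PADI6, NLRP2 and ZBED3 join or depend on it. The transcripts build up while the oocyte grows, and the proteins are carried over into the embryo. Mouse mothers that lack Nlrp5, Ooep, Tle6 or Padi6 produce embryos that stop in early cleavage, and Padi6 is also needed for the cytoplasmic lattices, fibrous structures of the egg cytoplasm.

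All 7 genes matched entries in the RefSeq promoter table for GRCm38.p6, the assembly of mm10, with 11 start sites in all. The 250 bases upstream of the RefSeq start are shown for the 4 members with a single start in that table, because Padi6 and Khdc3 are the members that passed the test below, and Ooep and Nlrp2 are the members with 1 start that did not. Letters in capitals are E-boxes (CANNTG), the motif bound by FIGLA, a transcription factor of oocytes. It reads the same on both strands. The first line is chr4:140742644-140742893 (minus strand), the second chr9:73102148-73102397 (plus strand), the third chr9:78378589-78378838 (minus strand) and the last chr7:5351036-5351285 (minus strand).
Padi6: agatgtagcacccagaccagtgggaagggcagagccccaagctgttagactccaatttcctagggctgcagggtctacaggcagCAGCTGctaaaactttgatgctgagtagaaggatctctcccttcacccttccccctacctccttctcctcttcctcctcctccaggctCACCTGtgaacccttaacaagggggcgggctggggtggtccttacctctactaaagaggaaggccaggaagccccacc
Khdc3: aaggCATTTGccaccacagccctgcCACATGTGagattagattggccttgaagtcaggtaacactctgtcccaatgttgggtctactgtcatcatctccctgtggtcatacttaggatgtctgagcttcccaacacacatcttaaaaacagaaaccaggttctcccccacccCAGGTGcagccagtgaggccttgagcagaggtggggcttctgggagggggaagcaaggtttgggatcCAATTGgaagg
Ooep: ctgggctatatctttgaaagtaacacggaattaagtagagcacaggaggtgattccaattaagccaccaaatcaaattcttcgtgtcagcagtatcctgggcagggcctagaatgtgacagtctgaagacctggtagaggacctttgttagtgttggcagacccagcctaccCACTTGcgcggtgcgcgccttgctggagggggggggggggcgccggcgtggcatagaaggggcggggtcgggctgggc
Nlrp2: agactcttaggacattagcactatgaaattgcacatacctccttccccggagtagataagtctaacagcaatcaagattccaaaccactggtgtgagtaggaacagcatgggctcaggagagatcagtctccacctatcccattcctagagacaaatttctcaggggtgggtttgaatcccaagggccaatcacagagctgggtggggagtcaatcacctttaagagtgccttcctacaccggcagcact
Padi6 had 2 E-boxes in this window and Khdc3 had 5, of which 2 overlap each other. Ooep had 1 and Nlrp2 had 0. The windows not shown had 2 and 2 for Nlrp5, 2 and 4 for Tle6, and 3, 1 and 1 for Zbed3. These members did not pass either, and no link between E-boxes and change was tested. At least 1 E-box stood in 10 of the 11 windows of members, against 66.2% of all 32851 windows of this length in the table. The NOBOX element (TAATTG, on either strand) stood in 1 of the 11, that of Ooep, against 7.17% of all windows. The letters TATAAA of the TATA box, counted on either strand, stood in 2 of the 11, at 1 start each of Nlrp5 and Zbed3, against 12.4% of all windows. Read along the gene, all of these matches in members were TTTATA, so none was TATAAA in the direction of the gene. A related form, TATATAAG in the Zbed3 window chr13:95323355-95323604, was not counted. RefSeq and GENCODE differ on some starts: the whole Khdc3 window and part of the Ooep window lie inside the GENCODE gene positions given below. The same holds, wholly or in part, for some counted windows of Nlrp5, Tle6 and Zbed3 that are not shown, including those with a TATAAA match. Those stretches are thus not all upstream in that annotation, and the counts are for windows at RefSeq starts. These are matches of letters, and no binding was measured.

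Levels are read as FPKM, a unit inferred from the tools listed by the submitters and from the values, since no header names it. FPKM counts fragments per unit of transcript length and per total of mapped fragments. The depth behind them was estimated from the lowest values at 19.6 to 24.9 M fragments per library (M for 1000000). Fragments per member were taken from that estimate and the merged exon length of all annotated transcripts, so shorter transcripts would mean fewer. On this basis the most abundant member, Padi6, rested on about 15219 to 39921 fragments per library. The least abundant, Nlrp2, rested on about 723 to 1425. Among the 14934 genes tested, 334 (2.24%) rose and 312 (2.09%) fell in cKO, by limma at an adjusted p below 0.05 over all genes. That split moved with scaling, to 270 higher and 421 lower after quantile normalisation, 332 and 543 with libraries centred on the median gene, 452 and 272 with libraries centred on reference genes, and 135 and 317 with libraries centred on oocyte markers. Ovary pools hold all cell types, so a change in the number of oocytes and a change in RNA per oocyte cannot be told apart.

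Of the 7 members, 2 rose in cKO ovaries, Padi6 and Khdc3, against 2.24% of all genes tested, and none fell, against 2.09%. At an unadjusted p below 0.05 by limma, 5 members were higher and 0 lower, against 2167 and 1463 of all genes tested. All 7 had a positive log2 change, as did 8735 of the 14934 genes tested. Their median log2 change was 0.63, against 0.05 over all genes tested. The 3 cKO libraries lay above the 3 control libraries for 4 members, Padi6, Nlrp5, Tle6 and Khdc3, against 18.0% of all genes tested. Each of these 4 had an exact two-sided permutation p of 0.1, below which a design of 3 libraries against 3 cannot go.

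**Figure D1:**
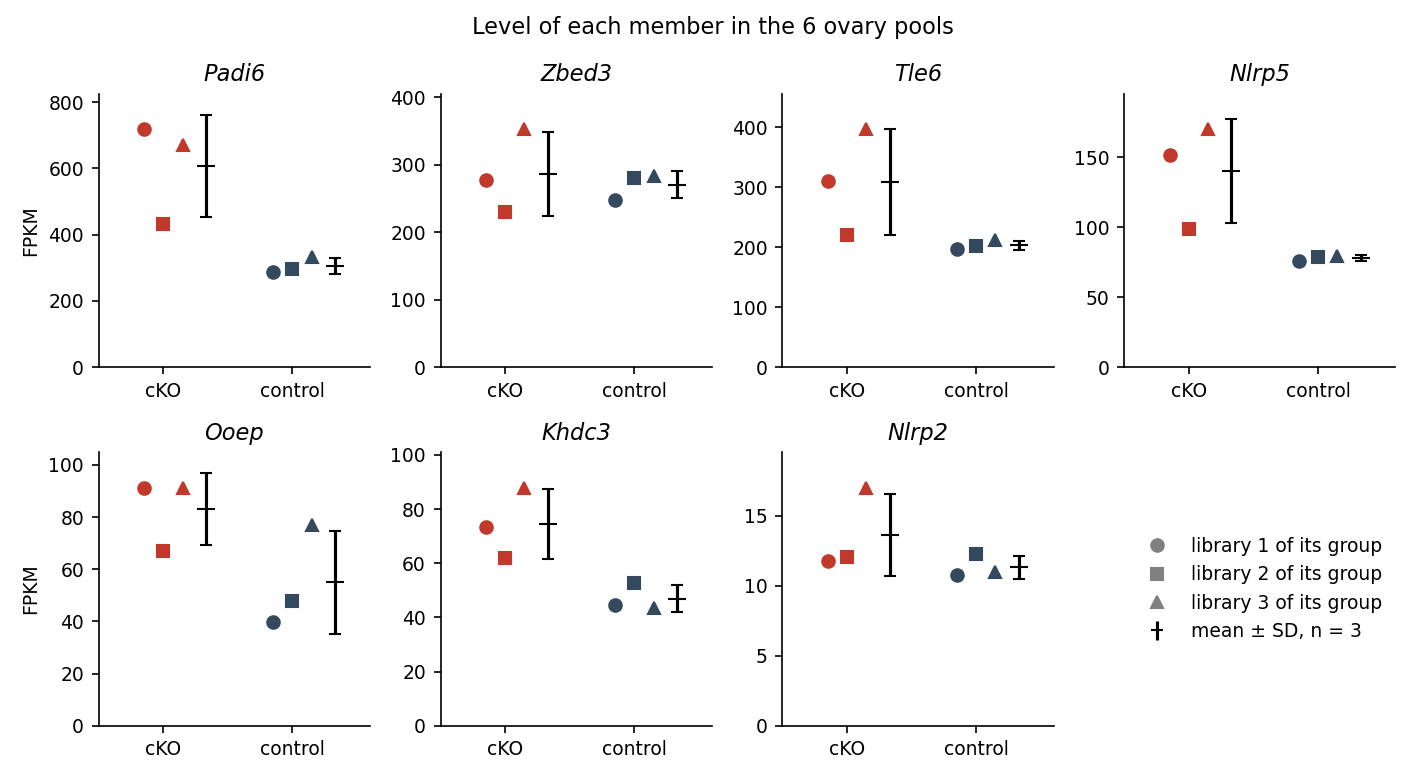
FPKM of each member (y axis, linear from 0) in the 3 cKO pools (red, left) and the 3 control pools (dark, right), with the mean ± SD of each group beside the points (n = 3). For Padi6, Tle6, Nlrp5 and Khdc3 every cKO point lies above every control point, while Zbed3, Ooep and Nlrp2 overlap; cKO 2 is the lowest cKO library for 6 members and not for Nlrp2.

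Padi6, a peptidylarginine deiminase gene of the oocyte, is on chromosome 4 (140727355 to 140742643, minus strand). It measured 719, 432 and 670 FPKM in cKO 1 to 3, against 288, 296 and 332 FPKM in control 1 to 3. The groups did not overlap, and the lowest cKO library stood well apart from the other two. The means were 607 ± 153 FPKM in cKO and 305 ± 23.6 FPKM in control (SD, n = 3 each), a ratio of 1.99. The log2 change was 0.96 with a 95% interval of 0.52 to 1.39 and an adjusted p of 0.038 by limma. The call held without cKO 2 at an adjusted p of 0.0372. It was lost, by limma, without cKO 1 (adjusted p 0.126), cKO 3 (0.0856), control 1 (0.16), control 2 (0.17) or control 3 (0.0543), with log2 changes from 0.82 to 1.19 over these fits.

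Khdc3, which encodes the KH domain protein FILIA, is on chromosome 9 (73101836 to 73104438, plus strand). It measured 73.4, 61.9 and 87.9 FPKM in cKO 1 to 3, against 44.6, 52.7 and 43.3 FPKM in control 1 to 3. The lowest cKO value was above the highest control value, by less than the SD of the cKO group. The means were 74.4 ± 13.0 FPKM in cKO and 46.9 ± 5.06 FPKM in control (SD, n = 3 each), with a log2 change of 0.65 (95% interval 0.33 to 0.97, adjusted p 0.0468 by limma). No fit with 1 library left out kept this call. The adjusted p by limma was 0.146 without cKO 1, 0.0583 without cKO 2, 0.079 without cKO 3, 0.178 without control 1, 0.141 without control 2 and 0.0908 without control 3. Khdc3 shares 790 exon bases with the gene model Gm20509 on the same strand, whose own row was at or near 0 in all 6 libraries.

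Nlrp5, which encodes the core protein MATER, is on chromosome 7 (23385889 to 23441922, plus strand). It measured 152, 98.7 and 170 FPKM in cKO 1 to 3, against 75.9, 78.4 and 79.7 FPKM in control 1 to 3. The control libraries were close together and every cKO library lay above them. The log2 change was 0.80 (95% interval 0.37 to 1.23) and the adjusted p by limma was 0.0572, so Nlrp5 did not pass. It passed without cKO 2, at a log2 change of 1.03 and an adjusted p of 0.0363 by limma, and in 5 further alternatives, among them a filter at a mean FPKM of at least 2 (adjusted p 0.0455).

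Tle6, a divergent gene of the TLE co-repressor family, is on chromosome 10 (81590904 to 81601073, minus strand). It measured 310, 220 and 396 FPKM in cKO 1 to 3, against 196, 201 and 211 FPKM in control 1 to 3. The groups did not overlap, but cKO 2 lay close to the highest control library. The log2 change was 0.56 (95% interval 0.12 to 1.01) with an adjusted p of 0.131 by limma.

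Ooep, the second KH domain gene of the core, is on chromosome 9 (78376109 to 78378725, minus strand). It measured 91.0, 67.0 and 91.3 FPKM in cKO 1 to 3, against 39.9, 47.7 and 77.1 FPKM in control 1 to 3. Control 3 lay above cKO 2, so the groups overlapped. The log2 change was 0.63 (95% interval 0.08 to 1.18) with an adjusted p of 0.163 by limma. Without control 3 the log2 change was 0.90 and Ooep passed at an adjusted p of 0.0347 by limma. The summed FPKM of 8 adipose tissue markers was also high in control 3, at 55.0 against 16.7 and 18.4 in control 1 and 2 and 18.0 to 18.9 in cKO. Most of the cKO sums was Plin1, at 10.6 to 13.9 FPKM, against 4.95 to 6.79 FPKM in control. The part of the adipose markers in the Ooep value was not tested.

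Zbed3 and Nlrp2 had the smallest changes. Zbed3, a zinc finger gene on chromosome 13 (95323612 to 95337841, plus strand), measured 277, 230 and 352 FPKM in cKO 1 to 3, against 248, 280 and 284 FPKM in control 1 to 3. The control values lay inside the cKO range, with a log2 change of 0.06 (95% interval -0.29 to 0.42, adjusted p 0.838 by limma). Its sign was not stable: the log2 change was -0.10 without cKO 3, -0.13 with libraries centred on oocyte markers and -0.00018 without control 1. Nlrp2, an NLRP family gene on chromosome 7 (5298547 to 5351035, minus strand), measured 11.8, 12.1 and 17.0 FPKM in cKO 1 to 3, against 10.8, 12.3 and 11.0 FPKM in control 1 to 3. Only cKO 3 stood above the control range, and the log2 change was 0.23 (95% interval -0.10 to 0.56, adjusted p 0.371 by limma). Nlrp2 shares 105 exon bases with a pseudogene on the opposite strand, and the strand setting of the values is not given in the sources used here.

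**Figure D2:**
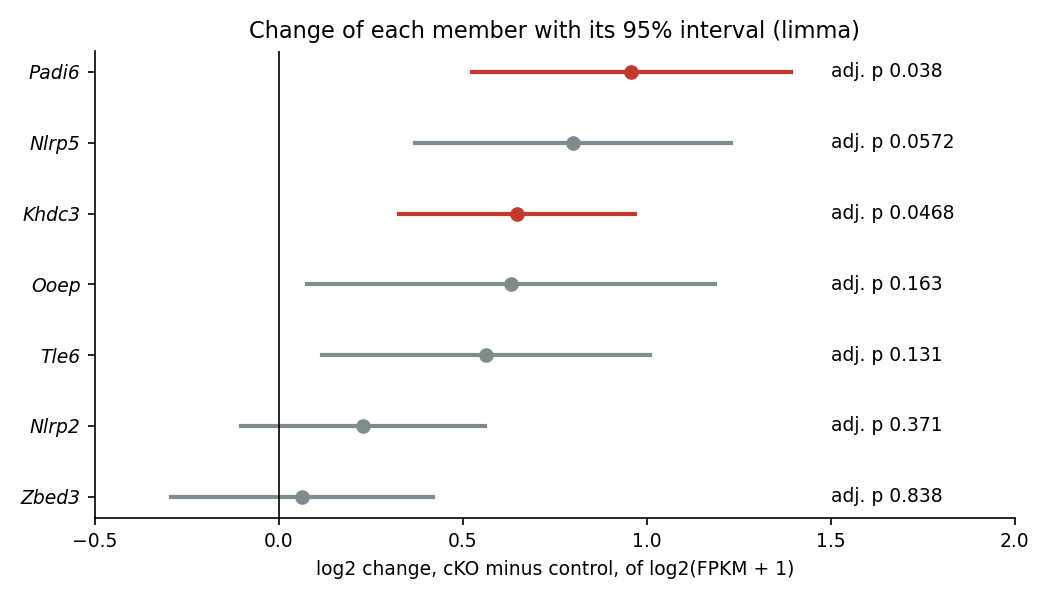
Log2 change of each member (x axis, cKO minus control on the log2(FPKM + 1) scale) with its 95% interval from limma and the adjusted p over all genes tested; red marks the members that passed. Padi6 and Khdc3 passed, the intervals of Nlrp5, Ooep and Tle6 also lie above 0, and those of Nlrp2 and Zbed3 include 0.

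By mean FPKM over the 6 libraries the members ran from Padi6 through Zbed3, Tle6, Nlrp5, Ooep and Khdc3 to Nlrp2. Of the 7, 6 lay among the more abundant of the tested genes, at percentiles from 90.7 for Khdc3 to 99.0 for Padi6, and Nlrp2 at the percentile 55.5. Padi6 was above Zbed3 in 6 of 6 libraries. Zbed3 was above Tle6 in 1 of 3 cKO libraries and in 3 of 3 control libraries, and Ooep was above Khdc3 in 3 of 3 cKO libraries and 1 of 3 control libraries, so neither of these neighbours had a fixed order. The other neighbours kept their order in all 6 libraries. The coefficient of variation of the members was 16.8% to 28.5% in cKO, against 2.50% to 10.8% in control for the 6 members other than Ooep, which had 35.8% there.

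The summed level of the 7 members was 1633, 1122 and 1785 FPKM in cKO 1 to 3, against 902, 969 and 1038 FPKM in control 1 to 3. Padi6 made up 44.0%, 38.5% and 37.5% of this sum in cKO, against 31.9%, 30.6% and 32.0% in control. Zbed3 made up 17.0%, 20.5% and 19.7% in cKO, against 27.4%, 28.9% and 27.3% in control. Neither share overlapped between the groups. The shares of a library sum to the whole, so a lower share of Zbed3 goes with higher shares of others, and its level in FPKM overlapped between the groups. Nlrp5 also had a larger share, at 8.80% to 9.52% in cKO and 7.68% to 8.41% in control, while the shares of Tle6, Ooep, Khdc3 and Nlrp2 overlapped. Of the ratios between members, 4 were computed, and that of Padi6 to Zbed3 takes the members with the largest and the smallest log2 change, a pair chosen with the values known. Within a library it was 2.60, 1.88 and 1.90 in cKO 1 to 3, against 1.16, 1.06 and 1.17 in control 1 to 3. The ratios of Nlrp5 to Nlrp2 and of Padi6 to Tle6 also lay higher in every cKO library. These pairs too set a larger log2 change over a smaller one, 0.80 over 0.23 and 0.96 over 0.56. No share of other gene pairs was computed, so they add no support of their own. The ratio of Ooep to Khdc3 was 1.24, 1.08 and 1.04 in cKO 1 to 3, against 0.895, 0.905 and 1.78 in control 1 to 3, so the groups overlapped. These ratios are taken inside each library, so scaling between libraries does not enter them.

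**Figure D3:**
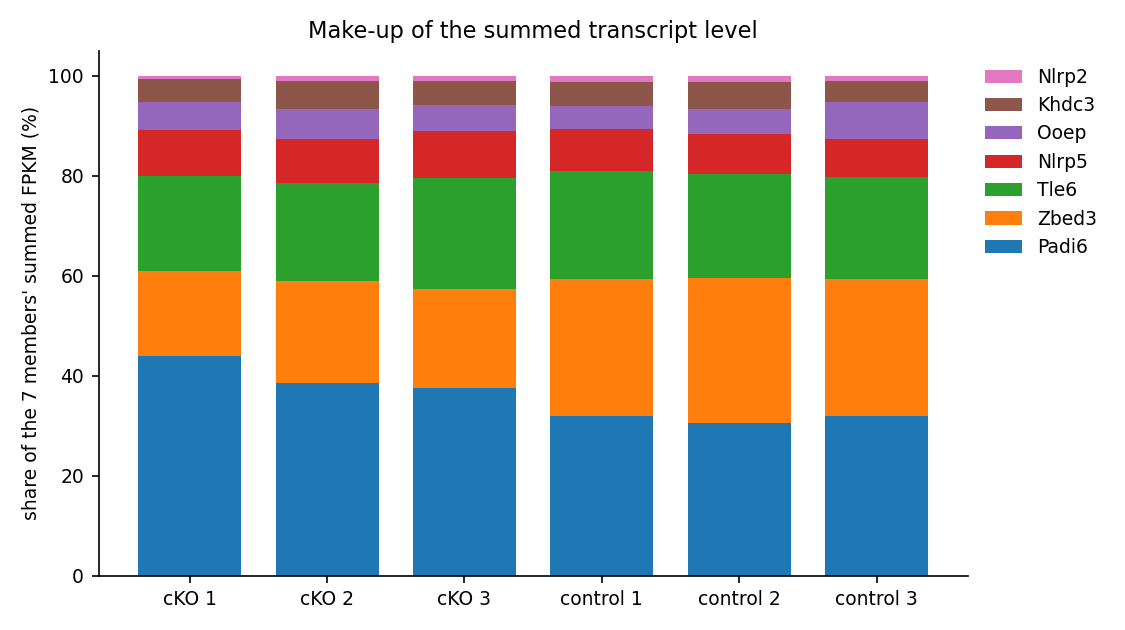
Share of each member in the summed FPKM of the 7 members (y axis, percent, from 0) for the 3 cKO and the 3 control pools. Padi6 takes 37.5% to 44.0% in cKO and 30.6% to 32.0% in control, and Zbed3 takes 17.0% to 20.5% in cKO and 27.3% to 28.9% in control.

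The members were then set against other oocyte transcripts of the same library. The geometric mean of 23 oocyte markers outside the complex was 42.3, 40.0 and 64.7 FPKM in cKO 1 to 3, against 39.2, 45.9 and 40.7 FPKM in control 1 to 3, with overlapping groups and the highest value in cKO 3. Over this mean, Padi6 stood at 17.0, 10.8 and 10.4 in cKO 1 to 3, against 7.34, 6.45 and 8.16 in control 1 to 3. Nlrp5 stood at 3.58, 2.47 and 2.63 in cKO, against 1.94, 1.71 and 1.96 in control. The ratios of Tle6 and Khdc3 also did not overlap, with cKO above control, so 4 of 7 members lay higher in every cKO library. Each of these 4 had an exact permutation p of 0.1, the smallest possible. Of all genes tested, 1.64% did so when divided by the same mean, against 18.0% undivided. The genes tested come from all cell types of the ovary, and the divisor was highest in cKO 3. The 1.64% is therefore not a background for oocyte transcripts, and no such share was computed for them. The ratio of Nlrp2 was 0.278, 0.302 and 0.263 in cKO, against 0.275, 0.267 and 0.27 in control, and those of Zbed3 and Ooep overlapped as well. With all libraries centred on the 23 markers, Padi6 stayed just below the threshold (log2 change 0.76, adjusted p 0.0475 by limma). Khdc3 did not (log2 change 0.46, adjusted p 0.561 by limma). In that fit the members' standard errors were nearly alike, from 0.24 for Padi6 to 0.26 for Nlrp2, against 0.19 and 0.14 in the main fit. Its p-values thus rest largely on a spread shared over genes. The Padi6 call there came with a smaller change and a larger standard error than in the main fit.

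**Figure D4:**
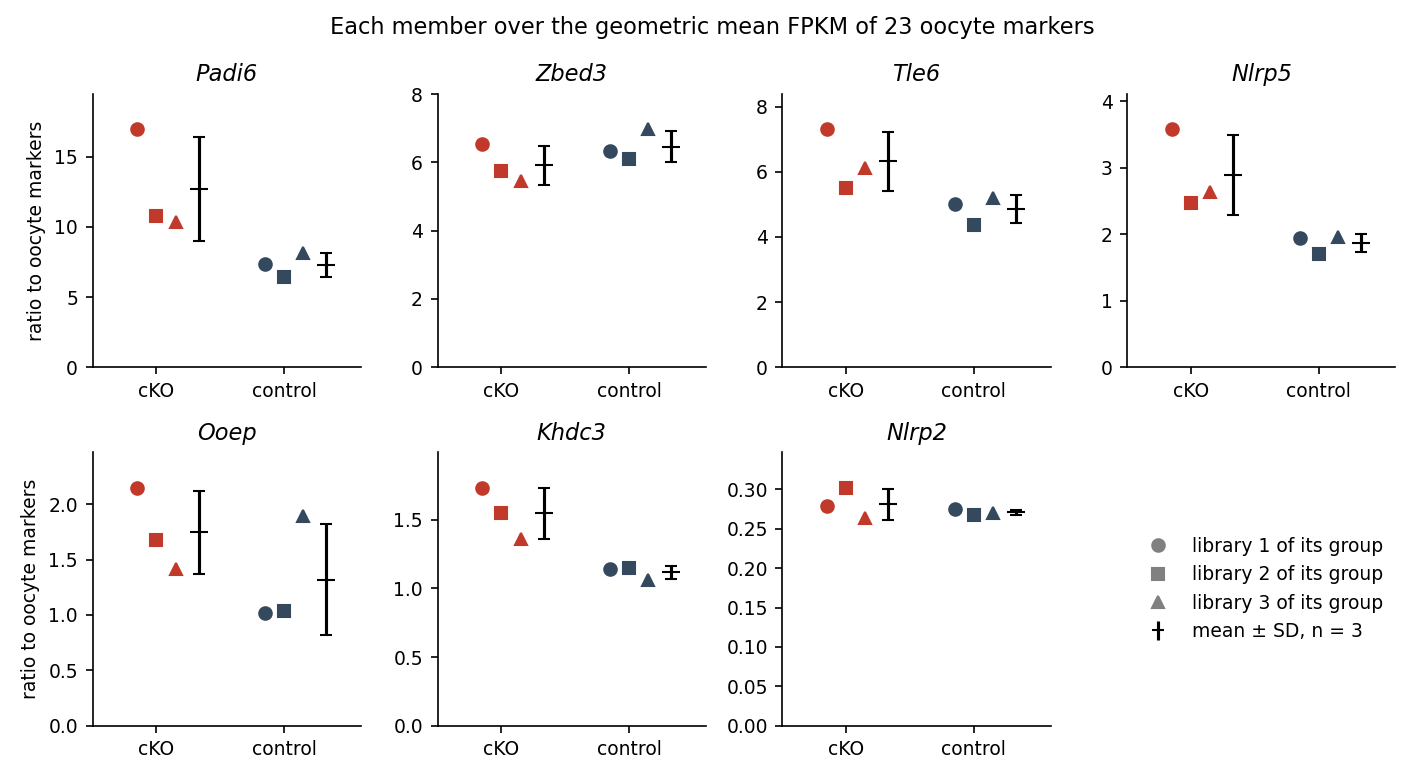
Each member's FPKM over the geometric mean FPKM of 23 oocyte markers in the same library (y axis, a ratio, linear from 0), for the cKO pools (red, left) and the control pools (dark, right), with mean ± SD (n = 3). Padi6, Tle6, Nlrp5 and Khdc3 lie higher in all 3 cKO pools, and Nlrp2 lies between 0.263 and 0.302 in all 6.

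The members were also set against Gdf9 alone, an oocyte growth factor gene and the source of the promoter in Gdf9-iCre. Gdf9 measured 259, 198 and 343 FPKM in cKO 1 to 3, against 197, 237 and 228 FPKM in control 1 to 3, and did not pass (log2 change 0.24, adjusted p 0.476 by limma). The ratio of Padi6 to Gdf9 was 2.77, 2.18 and 1.95 in cKO, against 1.46, 1.25 and 1.45 in control. The ratio of Zbed3 to Gdf9 was 1.07, 1.16 and 1.03 in cKO, against 1.26, 1.18 and 1.24 in control. Over Gdf9, Padi6, Nlrp5, Tle6 and Khdc3 lay higher in every cKO library, 4 of 7 members, against 1.55% of all genes tested. That share was 18.0% undivided, and Gdf9 was highest in cKO 3, so the 1.55% is not a background for oocyte transcripts either. Zbed3 lay lower in every cKO library, and Ooep and Nlrp2 overlapped. No share of all genes lying lower over Gdf9 was computed, so the Zbed3 result has no background beside it. Of the 23 oocyte markers, 2 rose, Zp2 and Zp3 of the egg coat, and none fell; 7 were higher and 0 lower at an unadjusted p below 0.05 by limma. At that unadjusted threshold 2167 of all 14934 genes tested were higher and 1463 lower. The median log2 change of the 23 was 0.13. By limma none rose without cKO 1, control 1 or control 2, and with libraries centred on the markers themselves 0 rose and 1 fell. The call of Zp2 was lost without cKO 1 (adjusted p 0.0982), control 1 (0.116) or control 2 (0.12) by limma. Zp3 kept its call only without cKO 3 (adjusted p 0.0486) among the 6 fits with 1 library left out, with adjusted p-values up to 0.174 in the others.

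Genes whose profile over the 6 libraries was most like the mean of the 7 members were found by the root-mean-square difference of log2 deviations from each gene's own mean, among 9353 genes with a mean FPKM of at least 5. This likeness is a description, with no test. The nearest was Nlrp14, an oocyte NLRP gene needed for early embryos, at a difference of 0.03. It measured 299, 219 and 346 FPKM in cKO 1 to 3, against 179, 193 and 199 FPKM in control 1 to 3, and its log2 change of 0.57 missed the threshold (adjusted p 0.0865 by limma). Npm2, an egg nucleoplasmin gene that acts on sperm chromatin, followed at 0.05, then the coiled-coil gene Ccdc106 at 0.06, the glycogen phosphorylase gene Pygl at 0.07 and the zinc transporter gene Slc30a3 at 0.08. None of these 5 passed by limma, with adjusted p-values from 0.0514 for Ccdc106 to 0.195 for Slc30a3.

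Single members had nearest genes of their own. For Padi6 it was Zp2, at a difference of 0.12. Zp2 measured 475, 371 and 510 FPKM in cKO 1 to 3, against 222, 244 and 257 FPKM in control 1 to 3, and rose by 0.89 on the log2 scale (adjusted p 0.0204 by limma). For Ooep it was the pluripotency factor gene Pou5f1, at 0.02, which like Ooep had its highest control value in control 3, at 26.4 FPKM against 14.1 and 16.5 FPKM in the other controls. For Khdc3 it was Astl, which encodes the egg protease ovastacin, at 0.06. For Tle6 it was Nlrp14, for Nlrp5 Ccdc106, for Nlrp2 Fbxw14 and for Zbed3 Pdcd7. The closest pair of members was Nlrp5 and Padi6, at a difference of 0.12, and the most distant pair was Padi6 and Zbed3, at 0.48.

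Relatives of the members were measured in the same libraries. The 4 other peptidylarginine deiminase genes, Padi1 to Padi4, belong to the family of Padi6, and none reached the filter, with a highest value of 0.98 FPKM for Padi4 in cKO 3. Of 4 KH domain genes, Dppa5a, which neighbours Ooep, and Khdc1a, Khdc1b and Khdc1c, none passed by limma and 2 were higher at an unadjusted p below 0.05. The median log2 change of these 4 was 0.67. For this and the next lists, 2167 of all 14934 genes tested were higher at that unadjusted threshold. Dppa5a measured 122, 107 and 170 FPKM in cKO 1 to 3, against 66.7, 74.4 and 107 FPKM in control 1 to 3, and Khdc1b measured 158, 135 and 173 FPKM in cKO, against 77.6, 96.4 and 128 FPKM in control. Khdc1a, Khdc1b and Khdc1c are related in sequence and can share fragments. Of the 5 other TLE genes none passed by limma, and 3 were higher at an unadjusted p below 0.05. Aes measured 349, 291 and 307 FPKM in cKO 1 to 3, against 262, 246 and 276 FPKM in control 1 to 3, and Tle1 measured 25.7, 21.1 and 21.2 FPKM in cKO 1 to 3, against 27.2, 28.0 and 22.4 FPKM in control 1 to 3. Of 10 other oocyte NLRP genes tested, none passed by limma, and 3 were higher at an unadjusted p below 0.05. Nlrp4f, which joins the complex in mouse, measured 38.8, 32.7 and 52.4 FPKM in cKO 1 to 3, against 28.8, 31.9 and 28.8 FPKM in control 1 to 3.

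Of 10 genes for reported partners of the complex or of the lattices, 3 of which are also oocyte NLRP genes, none passed by limma, and 4 were higher at an unadjusted p below 0.05. Over all 14934 genes tested, 2167 were higher and 1463 lower at that unadjusted threshold. The median log2 change of the partners was 0.16. Uhrf1, a chromatin regulator that is cytoplasmic in the oocyte, measured 72.4, 55.6 and 73.8 FPKM in cKO 1 to 3, against 55.3, 55.3 and 52.7 FPKM in control 1 to 3, and was singled out after its values were seen. The ubiquitin ligase subunit gene Skp1a and the actin regulator gene Cfl1, both expressed in many cell types, had log2 changes of 0.01 and -0.02, and each turned sign under some alternatives. Of 24 other maternal-effect genes none rose and 1 fell by limma, with 5 higher and 2 lower at an unadjusted p below 0.05. It was Ezh2, a histone methyltransferase gene, at 26.2, 27.2 and 30.5 FPKM in cKO 1 to 3, against 38.2, 36.1 and 37.3 FPKM in control 1 to 3 (log2 change -0.40, adjusted p 0.0413 by limma). Of the 6 fits with 1 library left out, only that without cKO 3 kept this call (adjusted p 0.0443 by limma). It was lost without cKO 1 (0.124), cKO 2 (0.0883), control 1 (0.17), control 2 (0.17) or control 3 (0.0746), and Ezh2 passed in 8 of 18 alternatives in all. The median of that list was 0.05, like that of all genes tested. The list is not limited to oocyte genes, so this median does not stand for them. Of its 24 genes, 14 had a positive log2 change. Kdm1b at 0.60, Nlrp14 at 0.57, and Npm2, Nobox and Dppa3 at 0.52 lay nearest to the median of the members. Zar1l was among the genes with a negative change, at -0.20. All of these were singled out after their values were seen.

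Of 7 oocyte transcription factor genes tested, 2 rose and none fell. Sohlh1, a factor of early oocytes, measured 10.7, 10.1 and 12.8 FPKM in cKO 1 to 3, against 2.97, 3.24 and 4.47 FPKM in control 1 to 3, a log2 change of 1.43 (adjusted p 0.0104 by limma). Figla, whose product binds E-boxes, measured 13.6, 13.0 and 14.6 FPKM in cKO 1 to 3, against 5.93, 5.12 and 8.73 FPKM in control 1 to 3, a log2 change of 0.98 (adjusted p 0.0305 by limma). Both groups of values stood clear of each other for these genes. Without cKO 1, control 1 or control 2 neither passed by limma. Sohlh1 then had adjusted p-values of 0.074, 0.0678 and 0.0746, and Figla of 0.114, 0.136 and 0.127. Figla was also lost without cKO 2 (adjusted p 0.0761) or cKO 3 (0.066). Nobox, a homeobox factor, had its highest control value in control 3, at 53.5 FPKM, and did not pass.

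**Figure D5:**
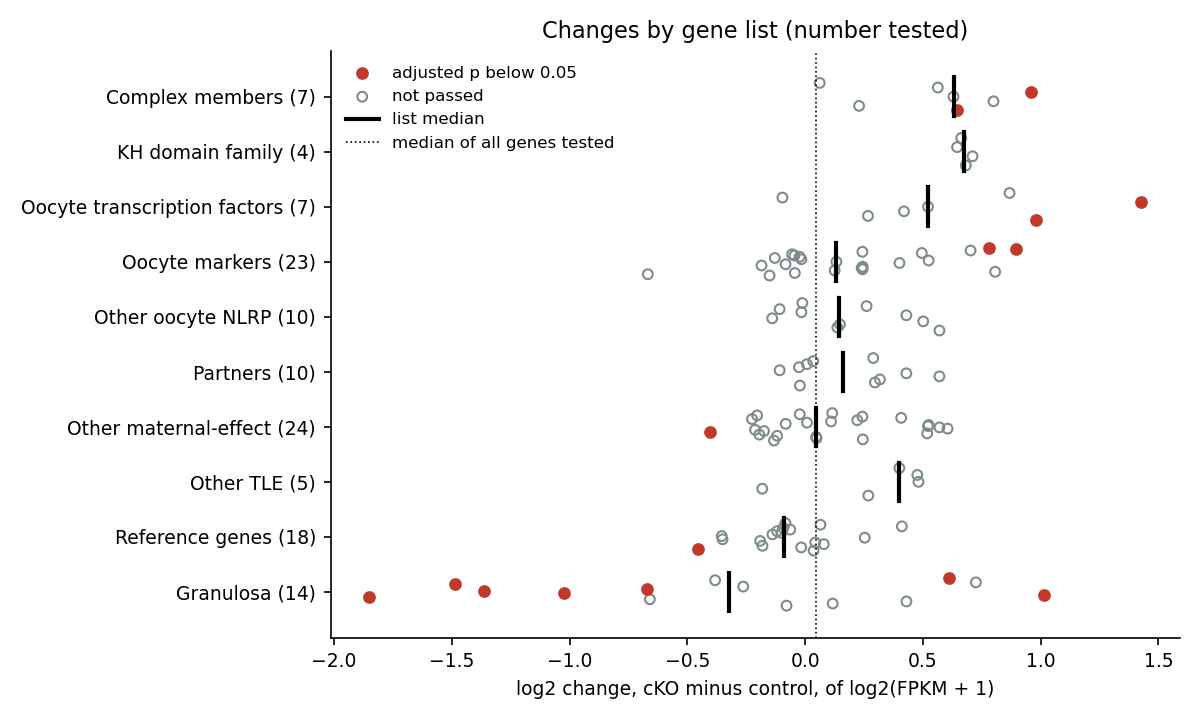
Log2 change (x axis, cKO minus control on the log2(FPKM + 1) scale) of each tested gene in 10 lists, with the number tested in brackets, filled red where the adjusted p was below 0.05; the short bar is the list median and the dotted line the median of all genes tested. The complex members have a median of 0.63, the KH domain genes 0.67, the oocyte markers 0.13 and the granulosa cell genes -0.32.

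Markers of other ovarian cells moved with genotype as well. The summed FPKM of 14 granulosa cell markers was 2648, 2286 and 2708 in cKO 1 to 3, against 4412, 4020 and 3459 in control 1 to 3. Inha was the largest part of this sum, with means of 1265 FPKM in cKO and 2017 FPKM in control. Of the 14, 5 fell, such as Fst and Gja1, against 2.09% of all genes tested, and 2 rose, Gatm and Wt1, against 2.24%. For 4 of the 14, every cKO library lay above every control library, against 18.0% of all genes tested. Without cKO 1, control 1 or control 2, 0 of the 14 rose and 0 fell by limma. Inha, Gatm and Wt1 were singled out after their values were seen. FPKM is a share of the library, and the part of the lower granulosa sum in the members' values was not tested. Among 7 stroma and smooth muscle markers, Tcf21 and Pdgfra rose, and 1 of 7 tested adipose markers rose, Plin1. The other 6 adipose markers had negative log2 changes, and the median of the 7 was -0.59. None of 6 theca, 6 endothelial and 5 leukocyte markers passed by limma, and at an unadjusted p below 0.05 2 theca markers, 0 endothelial and 0 leukocyte markers passed, both theca markers being higher. By the same unadjusted threshold 2167 of all 14934 genes tested were higher and 1463 lower. Of the theca markers 5 of 6 had a positive log2 change, with a median of 0.66, beside 0.63 for the members. Of 18 reference genes 1 fell, B2m. Leaving out 1 library ended most of these calls by limma. Tcf21 and B2m passed in none of the 6 fits with 1 library left out, Pdgfra only without cKO 3, Plin1 only without control 3, and Fst and Gja1 only without cKO 3 or control 3.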

How the data were processed

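Ovary RNA of 3 cKO and 3 control pools was sequenced, and the genotype label gave the groups. The deposited table holds values per Ensembl gene, with no counts, that were read as FPKM from the tools listed by the submitters and from the values; no header states the unit. The submitters' processing notes list TopHat2 2.0, Cufflinks 2.0 and mm10 without saying what each was used for; for annotation, strand setting and filters, the method is not given in the sources used here. All 6 libraries ran in lane 6, per the labels.

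log2(FPKM + 1) was compared with limma 3.58.1 in R 4.3.3 (lmFit, eBayes with trend) for genes with a mean FPKM of at least 0.5, adjusted by Benjamini-Hochberg over 14934 genes. Such fold changes understate low genes. Replicate numbers follow deposit order. P-values measure the spread between pools of 3 mice. Depth was estimated by reading FPKM below 0.15 as 1 fragment in genes with 1 transcript and at least 1500 exon bases, with 150 bases taken off; no interval was built on it. Positions are GENCODE M21, 1-based. The fit was tested on simulated data with planted log2 changes. It recovered 79% of 100 genes changed by 1 and 97% of 100 changed by 2. Of 187 genes called there, 11 were unchanged. No smaller change was planted, and every member's log2 change was below 1.

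Named genes were the members, Gdf9, up to 2 passing genes per list (otherwise the 2 most abundant; for theca, endothelial and leukocyte lists only counts) and the genes nearest in profile. Members and lists were chosen with earlier results of these data known. Results for the floxed gene are not reported here. Alternatives are given at the end.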

Additional observations from a re-analysis of the deposited data

How the results depend on the processing

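No paired analysis was possible because no replicate number in the labels is shared between the genotypes. After the data were seen, 2 alternatives were added. One left out both control 3 and cKO 3, and the other set the 3 controls against cKO 1, the libraries in the first range of numbers in the titles. Over 18 alternatives Padi6, Nlrp5, Khdc3, Tle6, Ooep and Nlrp2 kept a positive log2 change. The number of members that rose was 0 to 2 over fits with 1 library left out. It was 0 with no filter on low values, 0 without control 3 and cKO 3 together, 0 for the 3 controls against cKO 1, 1 with libraries centred on oocyte markers and 5 with array weights. No member fell in any alternative. Over all genes, fits with 1 library left out gave 0 to 307 higher and 2 to 353 lower. No filter gave 4 higher and 24 lower, array weights 1041 and 743, and the 3 controls against cKO 1 gave 22 and 1. Centring on the median gene gave 543 lower, centring on oocyte markers 135 higher, and leaving out control 3 and cKO 3 together 204 higher. With no filter the adjusted p was 0.11 for Padi6 and 0.113 for Khdc3 by limma with the same log2 changes; their unadjusted p-values moved as well, to 0.00353 and 0.00419. Centring on oocyte markers moved the median log2 change of all genes by -0.16. The log2 change turned negative for Zbed3 under that centring (-0.13) and without control 3 and cKO 3 together (-0.063), with a range of -0.10 to 0.21 over fits with 1 library left out. Genes with changes near 0 turned sign too. Skp1a was at -0.040 with median centring, -0.18 with oocyte marker centring, -0.079 without control 3 and cKO 3, and -0.051 against cKO 1, and at -0.076 to 0.062 with 1 library left out. Cfl1 was at 0.11 with quantile normalisation, 0.046 with reference genes and 0.11 against cKO 1, and at -0.086 to 0.092 with 1 library left out. Fbxw14 was at -0.012 and Pdcd7 at -0.13 with oocyte marker centring; Pdcd7 was at -0.078 without control 3 and cKO 3 and at -0.014 against cKO 1. With 1 library left out Fbxw14 ran from -0.0021 to 0.28 and Pdcd7 from -0.10 to 0.17. Apart from fewer samples, the causes were not tested.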

Other observations

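Control 3 was the highest control library for several oocyte genes beside Ooep. Khdc1a measured 45.2 FPKM there against 18.5 and 23.2 FPKM in the other controls, and Khdc1c 35.7 FPKM against 14.5 and 17.7 FPKM. Tbpl2, an oocyte form of the TATA-binding protein gene, measured 4.10 FPKM in control 3 against 2.17 and 2.24 FPKM. The opposite order held for Bcl2l10, an oocyte survival gene, at 29.9 FPKM in control 3 against 53.2 and 65.3 FPKM, and for Bmp15, an oocyte growth factor gene, at 29.5 FPKM against 51.8 and 60.4 FPKM. These genes were singled out after their values were seen.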
